A study of Mus musculus with 7 samples.

Results

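Estrogen and progesterone act on the mammary epithelium mainly through a minority of its cells. Estrogen receptor alpha and the progesterone receptor are ligand-activated transcription factors found mainly in a subset of luminal cells, which relay the signal to neighbouring cells through secreted factors such as RANKL and WNT4. Prolactin and growth hormone bind related cytokine receptors at the cell surface, and JAK2 then phosphorylates STAT5A and STAT5B, which drive alveolar growth and milk protein genes. The 10 genes examined here were chosen by name for these roles, with earlier results of these data known. They were Esr1, Pgr and Prlr (the estrogen, progesterone and prolactin receptors), Ghr (the growth hormone receptor), Foxa1 and Cited1 (nuclear partners of the estrogen receptor), Greb1 and Tnfsf11 (hormone targets), and Stat5a and Stat5b. Of these, 9 had a probe set annotated to that gene alone, among 17096 genes measured in this way, and together they had 19 such probe sets. Prlr had none under the annotation used and is not analysed here.

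The values came from 7 Affymetrix arrays of sorted mouse mammary cells. The 3 embryonic arrays held CD49fHi Lgr5Hi cells of Lgr5-IRES-GFP female embryos at embryonic day 14, with 1 litter's female embryos pooled for each array. The 2 luminal arrays held YFP+ cells of K8CREERT2/RosaYFP mice and the 2 basal arrays YFP+ cells of K5CREERT2/RosaYFP mice, in both cases 8 weeks after tamoxifen. In these mice the keratin 8 or keratin 5 promoter drives a Cre recombinase that tamoxifen activates, which switches on the YFP reporter permanently in the cell and its descendants. The luminal sort was not divided by hormone receptor status. The titles of the adult arrays carry the mark REANALYSIS, and those of the embryonic arrays do not. No age or sex of the adult mice is given in the labels, and the labels do not say if adult replicates are different animals. The p-values thus rest on the spread between arrays, which may be technical. In a sorted population measured in bulk, fewer cells of a type and less RNA per cell cannot be told apart. Precision is limited by the small number of arrays.

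The levels below are log2 intensities, and a difference is luminal minus basal on that scale. A gene passed the test when its Benjamini-Hochberg adjusted p in limma, over all 17096 genes, was under 0.05 and the difference was at least 2-fold. By this rule 613 genes (3.59%) were higher in luminal cells and 557 (3.26%) were lower. After quantile normalization of the arrays the split was 491 higher and 649 lower. At an unadjusted p under 0.05, 31.6% of all genes differed, 19.9% higher and 11.7% lower in luminal cells, and counts at that level below are to be set against these shares. A level of 5.78 was taken as background. In the 4 adult arrays, 95% of the values of 120 probe sets for 91 genes typical of other organs lay below it. Most markers went with the adult labels: 8 of 13 luminal markers passed as higher in luminal cells and 10 of 11 basal markers as lower. The other 5 luminal markers did not pass. Summed intensity of the luminal markers was 18112 and 17435 in luminal cells, against 9856 and 10490 in basal cells. That of the basal markers was 2920 and 3636 in luminal cells, against 17762 and 18813 in basal cells. Krt5 averaged 9.34 ± 0.30 in luminal and 12.09 ± 0.09 in basal cells, and Krt14 averaged 9.48 ± 0.09 in luminal and 12.02 ± 0.07 in basal cells (SD, n = 2 each). Krt8, whose promoter drove the luminal label, averaged 11.04 in luminal and 10.64 in basal cells, a difference of 0.40 ± 0.12 (SE) that did not pass (limma adjusted p = 0.0750). Krt18 had 0.68 ± 0.12 (adjusted p = 0.0186), under 2-fold, and Acta2, the smooth-muscle actin of basal cells, had -2.65 ± 0.41 (adjusted p = 0.0138).

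Of the 9 genes measured, 5 were higher in luminal cells (Foxa1, Cited1, Pgr, Greb1 and Esr1), beside 3.59% of all genes in that direction and 6.84% in either. The other 4 (Stat5a, Stat5b, Ghr and Tnfsf11) did not pass. None passed as lower in limma, and none was lower at an unadjusted p under 0.05. The median difference of the 9 genes was 1.40, against 0.02 for all genes. The genes were chosen with earlier results of these data known, so neither the count nor the median is independent evidence. Luminal and basal arrays did not overlap in 8 of the 9, as in 59.3% of all genes (34.0% with luminal cells higher), so lack of overlap alone says little with 2 arrays a group. All levels of the 9 genes in every array are shown in the plot of log2 intensity by array.

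**Figure D1:**
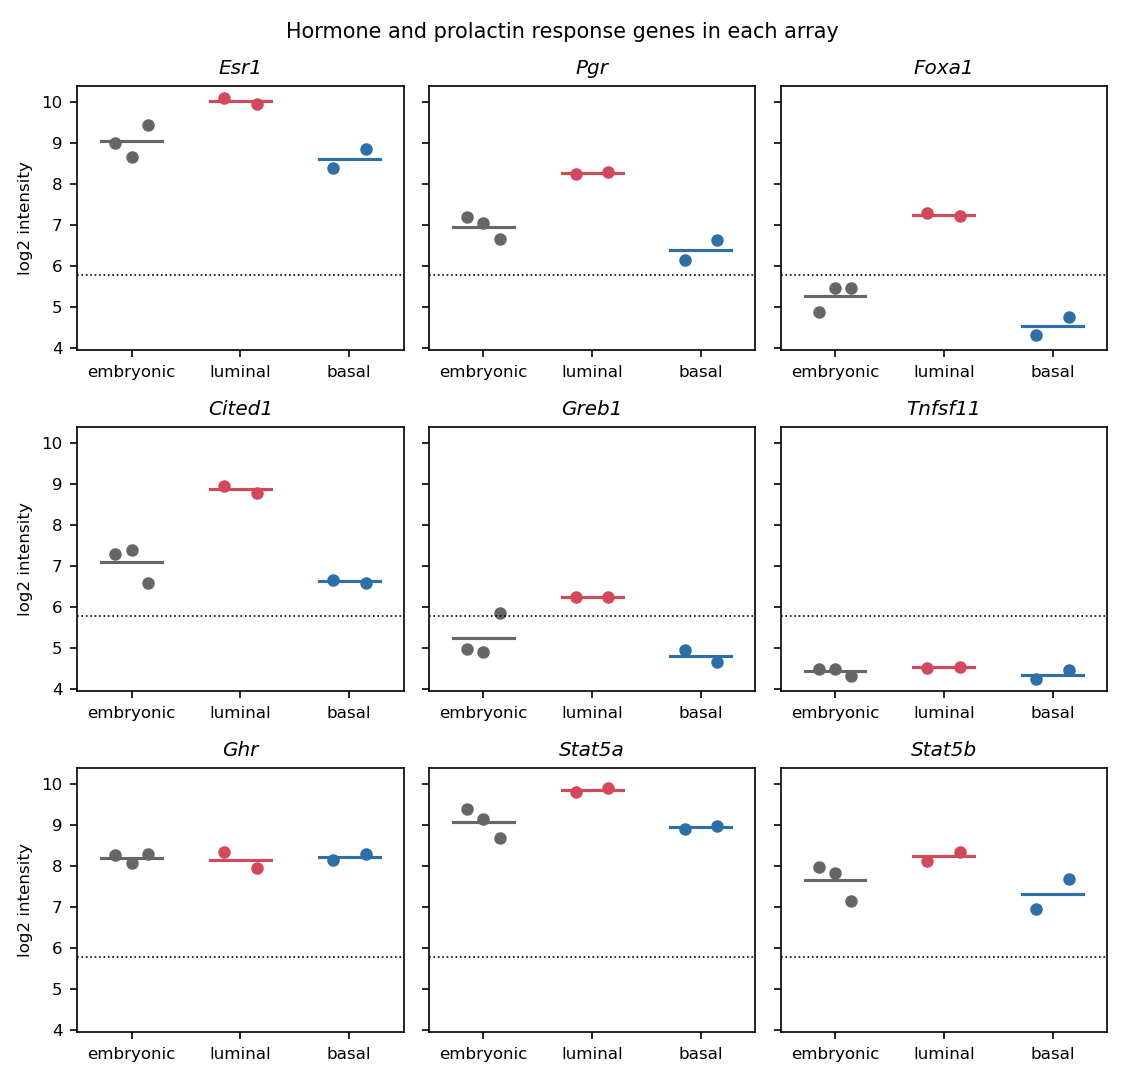
Log2 intensity of each gene (highest-mean probe set) in 3 embryonic, 2 luminal and 2 basal arrays. Points are arrays and horizontal lines are group means. The dotted line is the background level of 5.78, set from the adult arrays. The luminal points lie above the basal points in every panel but that of Ghr, and all points of Tnfsf11 lie under the dotted line.

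Esr1, the estrogen receptor alpha gene on chromosome 10, had levels of 10.09 and 9.94 in luminal cells, against 8.37 and 8.86 in basal cells. Both lineages lay above background and every luminal value was above every basal one. The difference was 1.40 ± 0.19 (SE, n = 2 and 2 arrays, limma adjusted p = 0.00984), a 2.64-fold higher level in luminal cells with a 95% interval of 0.93 to 1.87 on the log2 scale. The call needed both luminal arrays. Without luminal replicate 1 the difference was 1.33 (adjusted p = 0.0735), and without luminal replicate 2 it was 1.48 (adjusted p = 0.0514). Esr1 had a single probe set, so no other probe set could be compared.

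Pgr, the progesterone receptor gene on chromosome 9 and a classic estrogen target, had levels of 8.24 and 8.30 in luminal cells, against 6.15 and 6.63 in basal cells. The luminal arrays stood close together and the basal arrays lay lower and further apart. The difference was 1.88 ± 0.18 (SE, adjusted p = 0.00491), or 3.67-fold. Its other probe sets had differences of 2.30 ± 0.17 and 1.62 ± 0.21, and all 3 passed in a fit over every probe set (2.33% of 45033 probe sets passed as higher in luminal cells). Pgr passed under all 13 alternative settings tried, with differences between 1.64 and 2.12.

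Foxa1, a forkhead pioneer factor that opens chromatin for the estrogen receptor, had levels of 7.28 and 7.21 in luminal cells, against 4.31 and 4.76 in basal cells. The basal values were not above background, so the size of the difference is a bound: luminal cells were at least 2.76-fold higher, where the dim group was set at the background level. The fitted difference, whose size is not exact for that reason, was 2.71 ± 0.18 (SE, adjusted p = 0.00247). Cited1, a transcriptional coactivator on the X chromosome that marks estrogen receptor positive luminal cells, had levels of 8.94 and 8.78 in luminal cells, against 6.66 and 6.58 in basal cells. Its basal values were above background, and the difference was 2.24 ± 0.13 (SE, adjusted p = 0.00244), or 4.73-fold. Like Pgr, both genes passed under all 13 alternatives.

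Greb1, an estrogen-induced gene whose product binds the estrogen receptor in human breast cancer cells, had levels of 6.25 and 6.25 in luminal cells, against 4.96 and 4.65 in basal cells. The basal level was below background, and luminal cells were at least 1.38-fold higher with the dim group set at background. The fitted difference was 1.44 ± 0.15 (SE, adjusted p = 0.00522). Greb1 was the member whose probe sets differed most. Its other 3 probe sets lay below background in both lineages, with differences of 0.11, 0.50 and 0.55 that did not pass. With the mean of all 4 probe sets in place of the brightest, its difference was 0.65 and no longer 2-fold. The spread among probe sets of a gene is drawn in the plot of every single-symbol probe set.

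**Figure D2:**
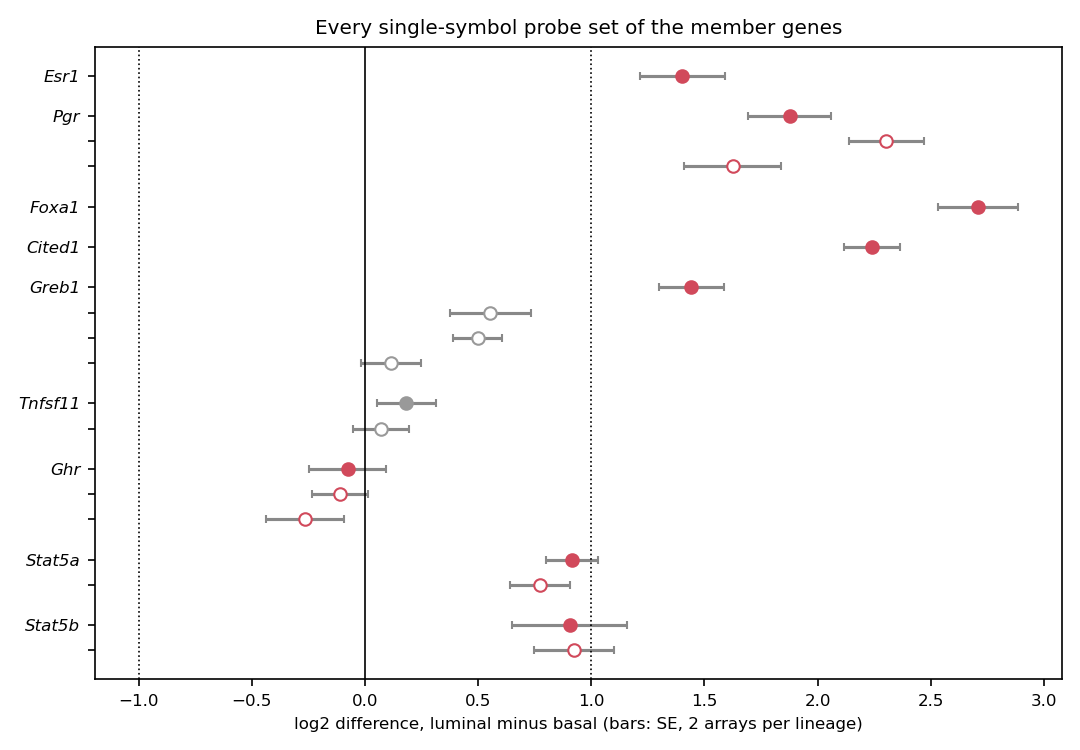
Log2 difference, luminal minus basal, of the 19 probe sets of the 9 genes, with SE bars (2 arrays per lineage); filled points are the probe set used for the gene, open points the others, grey points lie below background in both lineages, and dotted lines mark 2-fold. The 3 probe sets of Pgr lie right of the 2-fold line, those of Stat5a and Stat5b lie just left of it, and 1 of 4 for Greb1 lies beyond it.

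Promoter sequence is shown for Foxa1, Esr1 and Pgr, which were among the 5 genes that passed as higher in luminal cells. The windows are the 250 bases before a RefSeq start site in build GRCm38.p6, written 5′ to 3′ on the gene's strand. Capitals mark a match to any of 5 motifs searched on both strands: the estrogen response element (GGTCA and TGACC, 3 bases apart), the progesterone receptor palindrome (GNACA and TGTNC, 3 bases apart), the STAT site (TTC and GAA, 3 bases apart), the forkhead site (TGTTTAC) and a GATA site (AGATAA). No matches overlapped.
Foxa1, chr12:57546112-57546361, minus strand: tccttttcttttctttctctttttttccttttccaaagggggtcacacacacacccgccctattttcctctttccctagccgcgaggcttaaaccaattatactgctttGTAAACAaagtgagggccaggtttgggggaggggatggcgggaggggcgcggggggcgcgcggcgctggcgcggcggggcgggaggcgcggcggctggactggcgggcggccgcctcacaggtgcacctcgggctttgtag
Esr1, chr10:4709908-4710157, plus strand, the downstream of 2 start sites: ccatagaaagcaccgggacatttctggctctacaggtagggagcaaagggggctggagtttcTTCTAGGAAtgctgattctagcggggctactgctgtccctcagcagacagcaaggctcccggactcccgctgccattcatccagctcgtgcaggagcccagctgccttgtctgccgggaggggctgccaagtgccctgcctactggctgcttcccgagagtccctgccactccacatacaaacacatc
Pgr, chr9:8899583-8899832, plus strand: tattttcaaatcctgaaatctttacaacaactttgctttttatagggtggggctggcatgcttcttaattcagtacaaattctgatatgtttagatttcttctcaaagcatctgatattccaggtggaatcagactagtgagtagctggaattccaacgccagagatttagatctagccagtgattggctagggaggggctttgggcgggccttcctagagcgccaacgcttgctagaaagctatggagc
The capitals in Foxa1 are a forkhead match on the opposite strand, 141 to 135 bases before the start, and such matches stood in 3.17% of 32851 windows. Those in Esr1 are a STAT match, 188 to 180 bases before the start, and such matches stood in 7.02% of windows. The Pgr window and the upstream Esr1 window held none of the 5. Over the 19 windows of all 10 genes, the other matches were a STAT site and a forkhead site in 1 of 3 windows of Prlr. An estrogen response element stood in 0.0639% of all windows and in none of these 19. A match describes letters and not binding.

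The signalling arm of prolactin and growth hormone showed smaller differences. Stat5a, a main mediator of prolactin signalling in the gland, had levels of 9.80 and 9.91 in luminal cells, against 8.90 and 8.96 in basal cells. Both luminal values were above both basal values, and the difference was 0.92 ± 0.12 (SE, adjusted p = 0.00949), or 1.89-fold, under the 2-fold minimum. Its second probe set had 0.77 ± 0.13. With no minimum difference Stat5a would pass, as would 10.7% of all genes toward luminal cells.

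Stat5b, its close paralogue next to it on chromosome 11, had levels of 8.13 and 8.33 in luminal cells, against 6.96 and 7.69 in basal cells. The basal arrays differed by 0.73, and the difference between lineages of 0.90 ± 0.25 did not pass (SE, limma adjusted p = 0.0640). Without basal replicate 2 it was 1.27 and passed (adjusted p = 0.00563), and without basal replicate 1 it was 0.54. The second Stat5b probe set had 0.92 ± 0.18. Whether the Stat5a and Stat5b probe sets bind each other's transcripts was not tested.

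Ghr, the growth hormone receptor gene on chromosome 15, had levels of 8.34 and 7.94 in luminal cells, against 8.13 and 8.30 in basal cells. The groups overlapped, and the difference was -0.08 ± 0.17 (SE, limma adjusted p = 0.830) with a 95% interval of -0.50 to 0.35. A 2-fold difference in either direction lies outside that interval. Its other probe sets had differences of -0.11 and -0.27, and none of the 3 passed. Tnfsf11, which encodes RANKL, the paracrine ligand induced by progesterone, had levels of 4.51 and 4.54 in luminal cells, against 4.23 and 4.46 in basal cells. All values lay below background on both of its probe sets, and the gene did not pass (0.18 ± 0.14, limma adjusted p = 0.436). A level below background does not show that the gene was silent.

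The differences of the 9 genes are placed among those of all genes in the plot of difference against mean level. Since a gene passed only with a difference of at least 2-fold, the place of the 5 that passed is set by that rule. Stat5a (0.92) and Stat5b (0.90) lay just inside the 2-fold limit, and the place of Foxa1 and Greb1 rests on basal levels below background.

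**Figure D3:**
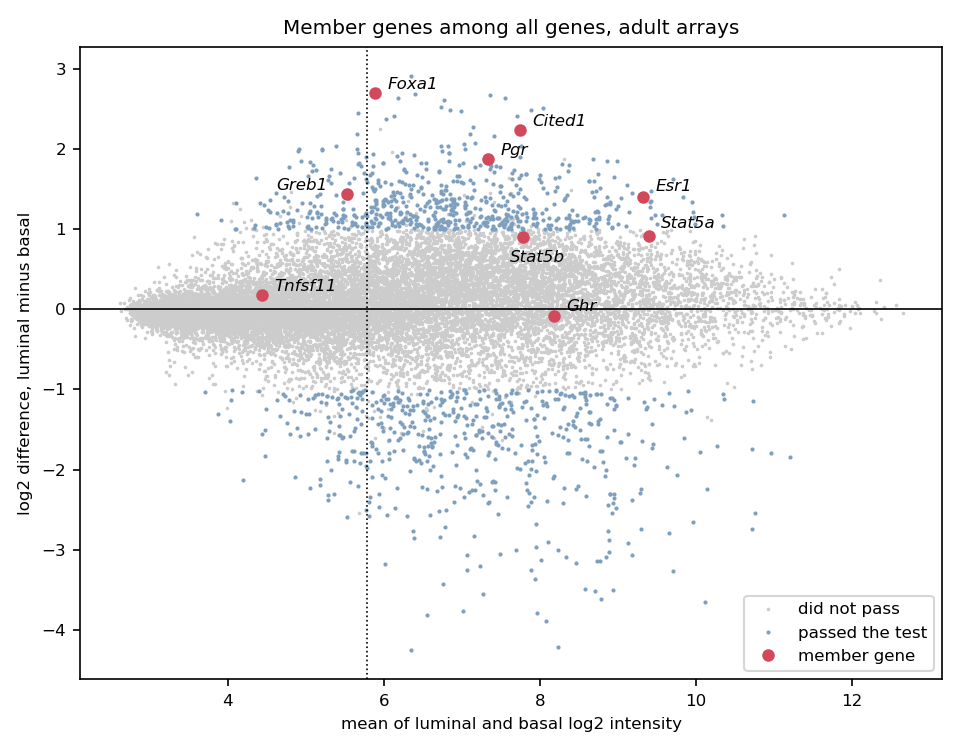
Log2 difference, luminal minus basal, against the mean of both log2 intensities for 17096 genes in the adult arrays; grey points did not pass, blue points passed the test, red points are the 9 genes and the dotted line is the background level of 5.78. Foxa1 (2.71, with a basal level below background), Cited1 (2.24) and Pgr (1.88) lie above 1, Stat5a and Stat5b lie just under 1, and Ghr lies at -0.08.

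The basal arrays were not alike in these genes. Esr1, Pgr and Foxa1 were higher in basal replicate 2 than in basal replicate 1 by 0.48, 0.48 and 0.45, and Stat5b by 0.73. In Cited1 and Greb1 the order was the other way, at -0.08 and -0.30. In all, 7 of the 9 genes were higher in basal replicate 2, as were 55.2% of all genes. Beside this, the median of the 13 luminal markers was 0.34 higher in basal replicate 2, and that of the 10 endothelial markers was 0.78 higher. The other marker lists were higher by 0.43 (fibroblast), 0.27 (adipocyte), 0.12 (basal), 0.05 (hormone receptor negative luminal) and 0.03 (leukocyte). Between the luminal arrays, replicate 2 minus 1, the median was 0.84 for fibroblast and 0.75 for endothelial markers. For the other marker lists it was 0.25 (basal), 0.23 (leukocyte), 0.002 (luminal), -0.04 (adipocyte) and -0.20 (hormone receptor negative luminal). The luminal arrays differed by -0.40 in Ghr (replicate 2 minus 1) and by at most 0.20 in size in the other 8 genes.

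Markers of other cells were examined beside these results. Of 10 markers of hormone receptor negative luminal cells, 4 passed as higher in luminal cells, beside 3.59% of all genes. Elf5, a transcription factor of secretory progenitors, had a difference of 1.68 ± 0.15 (SE, limma adjusted p = 0.00421). The difference of Kit (1.40, among the 4) lay between levels that were below background in both lineages, so its size is not read. The 6 that did not pass ran from -0.05 in Lcn2 to 0.79 in Cd14. The summed intensity of the 10 markers was 4490.3 and 3512 in luminal cells, against 2643 and 2834 in basal cells. Fibroblast markers summed to 2719 and 4534 in luminal cells, against 6370.2 and 7843 in basal cells, and 1 of 10 passed, as lower, with 5 lower and 0 higher at an unadjusted p under 0.05. Endothelial markers summed to 393 and 699.8 in luminal cells, against 987 and 1621 in basal cells. Of these 10, 1 passed, as lower, with 9 lower and 0 higher at an unadjusted p under 0.05. Among all genes 3.26% passed as lower, and 11.7% were lower at an unadjusted p under 0.05 in limma. Col1a1 (-1.38 ± 0.56) and Pecam1 (-1.63 ± 0.43) did not pass (adjusted p = 0.158 and 0.0564). Without luminal replicate 2 both passed, at -2.29 and -2.23 (adjusted p = 0.0172 and 0.0417), and Pecam1 also passed without basal replicate 1 (-2.00, adjusted p = 0.0331). None of 11 leukocyte or 6 adipocyte markers passed in limma, with 2 of each list at an unadjusted p under 0.05, all lower (11.7% of all genes), and Ptprc and Adipoq were below background in every adult array. Summed leukocyte markers were 453 and 633 in luminal cells, against 694 and 833 in basal cells, and summed adipocyte markers 240.3 and 361 in luminal cells, against 422 and 568 in basal cells. The part of these cells in the differences of the hormone genes was not tested. Nor was the part of luminal cells or luminal signal in the basal arrays.

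Other genes of the pathways were taken from 6 lists, also chosen with earlier results of these data known. Their members are drawn in the plot of pathway lists. As with the hormone genes, the part of fibroblasts or other cells in these differences was not tested. For reference, 3.59% of all genes passed as higher in luminal cells and 3.26% as lower, with a median of 0.02. Of 17 measured estrogen response genes, 4 were higher and 3 lower in luminal cells (median 0.18). Wnt4, a secreted WNT ligand downstream of progesterone, had levels of 9.13 and 9.32 in luminal cells, against 7.32 and 7.67 in basal cells, a difference of 1.73 ± 0.17 (SE, adjusted p = 0.00449). Ccnd1, the cyclin D1 gene, had 10.46 and 10.64 in luminal cells, against 9.40 and 9.39 in basal cells (1.16 ± 0.13, adjusted p = 0.00627), and Stc2, which encodes a secreted glycoprotein, had a difference of 1.82 ± 0.21 (adjusted p = 0.00677). Lower in luminal cells were the chemokine gene Cxcl12, with 5.08 and 6.16 in luminal cells against 8.88 and 8.78 in basal cells (-3.21 ± 0.34, adjusted p = 0.00555, above background in 1 of 2 luminal arrays), the transcription factor gene Tfap2c (-1.33 ± 0.20, adjusted p = 0.0126) and Igfbp4, which encodes a binding protein for insulin-like growth factors (-1.60 ± 0.37, adjusted p = 0.0377). Tfap2c no longer passed without luminal replicate 1 (adjusted p = 0.0752) or with all 7 arrays in the fit (0.102). Igfbp4 no longer passed without luminal replicate 1 (0.170), luminal replicate 2 (0.0571) or basal replicate 2 (0.0511), each an adjusted p. Xbp1 (0.50, adjusted p = 0.0441) was under 2-fold, and Gata3, a regulator of luminal fate, had -0.05 ± 0.22 (adjusted p = 0.920). Without luminal replicate 1 the list had 1 lower gene in place of 3.

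**Figure D4:**
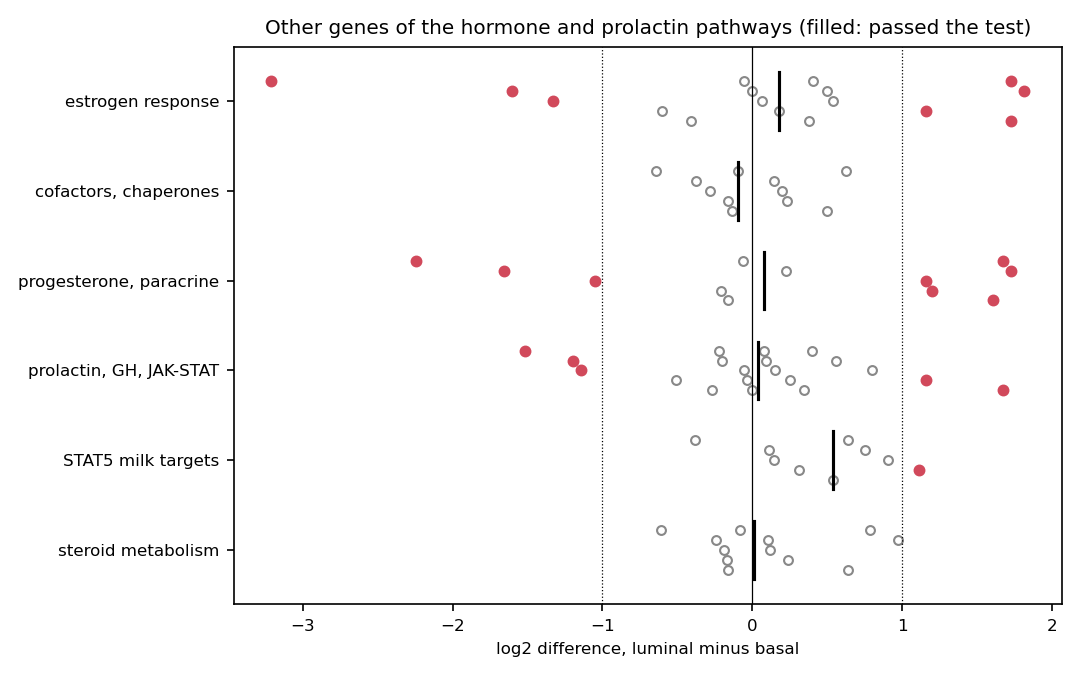
Log2 difference, luminal minus basal, of the measured genes of 6 pathway lists; filled points passed the test, open points did not, short black lines are list medians and dotted lines mark 2-fold. Filled points lie on both sides for the estrogen, progesterone and prolactin lists, and the cofactor and steroid metabolism lists have none.

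Of 12 measured progesterone and paracrine genes, 5 were higher and 3 lower in luminal cells (median 0.08), Wnt4 and Ccnd1 being shared with the list before and Elf5 also a marker above. Elf5 had 6.50 and 6.82 in luminal cells, against 4.92 and 5.05 in basal cells, at least 1.84-fold with the basal group at background. Rspo1, a WNT agonist, had a difference of 1.20 ± 0.12 (adjusted p = 0.00543) with both lineages below background, so its size is not read. Where only genes above background entered the fit, 4 genes of the list were higher and 2 lower. The genes of the RANKL receptors passed as lower in luminal cells, whereas the RANKL gene Tnfsf11 lay below background in both lineages. Tnfrsf11a, which encodes RANK, had 5.22 and 5.06 in luminal cells, against 5.92 and 6.46 in basal cells (-1.05 ± 0.20, adjusted p = 0.0247), a level at least 1.33-fold lower in luminal cells. Its call was lost without luminal replicate 1 (adjusted p = 0.112) or luminal replicate 2 (0.121), and without basal replicate 2 the difference was -0.77. Tnfrsf11b, the gene of the RANKL decoy receptor osteoprotegerin, had 5.11 and 4.91 in luminal cells, against 6.60 and 6.73 in basal cells (-1.66 ± 0.14, adjusted p = 0.00336), at least 1.85-fold lower in luminal cells. With the mean of their probe sets the differences were -0.60 for Tnfrsf11a and -0.88 for Tnfrsf11b, both under 2-fold. Id4, an inhibitor of helix-loop-helix factors, was lower too (-2.24 ± 0.28, adjusted p = 0.00828). Hand2 (-0.06) and Ihh (-0.21) did not pass and lay below background.

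Of 20 genes around prolactin, growth hormone and JAK-STAT signalling, 2 were higher in luminal cells (Elf5 and Ccnd1) and 3 lower (median 0.04). The lower ones were Igf1r, the insulin-like growth factor 1 receptor gene, with 7.062 and 6.996 in luminal cells against 8.10 and 8.35 in basal cells (-1.20 ± 0.14, adjusted p = 0.00706), Igf1, a growth hormone target (-1.14 ± 0.25, adjusted p = 0.0321), and Socs3, a feedback inhibitor of cytokine receptors (-1.52 ± 0.35, adjusted p = 0.0396). Without luminal replicate 1 none of the 3 passed (adjusted p = 0.0539 for Igf1r, 0.171 for Igf1 and 0.188 for Socs3). Without luminal replicate 2 Igf1 (0.112) and Socs3 (0.0700) did not pass by adjusted p, and without basal replicate 2 the Igf1 difference was -0.78. Jak2, the kinase bound to both cytokine receptors, had 7.45 and 7.18 in luminal cells, against 6.62 and 6.89 in basal cells (0.56 ± 0.16, adjusted p = 0.0691). Jak1 had -0.51 ± 0.12 (adjusted p = 0.0431), under 2-fold.

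Of 9 measured milk genes that STAT5 regulates, 1 was higher in luminal cells and none lower (median 0.54). Csn1s1, the alpha-S1 casein gene, had 7.79 and 7.25 in luminal cells, against 6.10 and 6.72 in basal cells (1.12 ± 0.27, adjusted p = 0.0438). It did not pass without luminal replicate 1 (adjusted p = 0.209), luminal replicate 2 (0.0762) or basal replicate 1 (0.0773). Csn1s2a had 8.87 and 8.21 in luminal cells, against 7.57 and 8.88 in basal cells, overlapping groups with a difference of 0.31 ± 0.45. Csn1s2b (0.15) lay below background. By an unadjusted p under 0.05 in limma, 5 of the 9 were higher and 0 lower, beside 19.9% and 11.7% of all genes.

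None of 11 measured receptor cofactors and chaperones passed in limma (median -0.09), with 4 at an unadjusted p under 0.05, 2 in each direction, beside 31.6% of all genes. The coactivator genes Ncoa1 and Ncoa2 had differences of -0.64 ± 0.17 and 0.50 ± 0.18 (adjusted p = 0.0567 and 0.123). None of 12 steroid metabolism genes passed in limma either (median 0.01), with 2 higher and 1 lower at an unadjusted p under 0.05, again beside 31.6% of all genes. The estradiol dehydrogenase genes Hsd17b1 (0.12) and Hsd17b2 (0.24) lay below background in both lineages.

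Genes whose profile over the 4 adult arrays lay closest to Esr1 were Ptdss2, Clcn3 and Cd99l2, with root mean square differences of 0.01, 0.03 and 0.03 on the log2 scale after each profile was centred on its own mean, among 8660 genes above background in an adult lineage. For Pgr they were Prom1 (0.06), a surface marker of hormone receptor positive luminal cells in the mouse, Tmc4 (0.06) and the claudin gene Cldn10 (0.06). Likeness over 4 arrays of 2 lineages is a description and carries no test.

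The embryonic columns can be described only within the table. Values of embryonic replicates 1 and 2 were identical in 5 of the 19 probe sets of these genes, as in 37.6% of all probe sets, and in all 3 embryonic arrays for 2 of them, a probe set of Pgr and one of Tnfsf11. The embryonic mean lay between the luminal and the basal mean in all 9 genes, as it did in 89.3% of all genes and in 1169 of the 1170 that passed, so this position is not particular to them. No label states how embryonic and adult arrays were put on a common scale, and no test was made across them. Esr1 had 8.99, 8.66 and 9.44 in embryonic cells, where replicate 3 was highest. Pgr had 7.18, 7.04 and 6.65, and Cited1 had 7.30, 7.39 and 6.59, where replicate 3 was lowest. Foxa1 had 4.87, 5.47 and 5.47, and Greb1 had 4.98, 4.89 and 5.84. The background level was set from the adult arrays alone, so the embryonic values are not read against it. Stat5a had 9.38, 9.15 and 8.68, Stat5b had 7.97, 7.83 and 7.15, and Ghr had 8.26, 8.06 and 8.29. Replicate 3 was made from 813 cells where the others had 2000. It was lowest in Pgr, Cited1, Tnfsf11 and both Stat5 genes, highest in Esr1, Greb1 and Ghr, and level with replicate 2 in Foxa1. The part of cell number in this was not tested.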

How the data were processed

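RNA of sorted embryonic cells was amplified for Affymetrix arrays, according to the labels' protocols. The authors deposited linear probe set intensities, for which the submitters' processing notes name RMA and affy without version or settings; log2 was taken here. Where the design had assumed values that might already be log2, the columns were linear. The protocol text of the adult samples describes the embryonic preparation. Of 45141 rows, 4 without values and 104 controls were left out. The platform annotation gave 1 symbol for 28895 of 45033 probe sets, several for 551 and none listed for 15587. The brightest probe set over the 4 adult arrays stood for each gene. Limma 3.58.1 in R 4.3.3 fitted the 4 adult arrays with eBayes (2 residual and 3.72 prior degrees of freedom); the embryonic arrays, with their tied values, entered only an alternative. On simulated data for 17096 genes, of which 200 were changed, 68% of log2 changes of 1.5 and 93% of changes of 3 were recovered, with 2 false calls among 163. The simulation drew arrays as independent and changed fewer genes than the 1170 that passed, so these rates may not hold for the real arrays. Members, lists and tests were chosen with earlier results of these data known. Named were all members, up to 3 passing genes per list and direction by adjusted p, the first 2 not passing in list order, defining markers, and the 3 nearest profiles of Esr1 and Pgr. Promoters are from RefSeq (GRCm38.p6). Figures used matplotlib 3.10.9 in Python 3.11.15. The median log2 intensity ran from 5.05 to 5.08 over the 7 arrays.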

Additional observations from a re-analysis of the deposited data

How the results depend on the processing

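The 13 alternatives changed the samples in the fit, the pairing, each replicate, the probe set rule, the filter on dim genes, normalization, the variance prior, the log offset and the fold minimum. Foxa1, Cited1 and Pgr passed under each of them. The number of members that passed ran from 4 to 6. Esr1 missed the threshold without either luminal array (adjusted p from 0.00261 to 0.0735 over its alternatives), Greb1 was under 2-fold with the mean of its probe sets and was not tested when dim genes were left out. The 1170 passing genes became 942 with all 7 arrays in the fit (938 shared), 713 with an offset of 16 (333 higher in luminal cells) and 2878 with no minimum difference (1828 higher, 1050 lower). Leaving out 1 array gave 520 to 1445 genes, 232 to 931 higher and 288 to 708 lower, lowest without luminal replicate 1; each such fit had a group of 1 array, assumed to vary like the other. With the replicate block 1214 genes passed, the 5 members among them, and the higher milk genes went to 0; same-numbered arrays deviated together with a correlation of 0.08 between luminal and basal replicate 1, and with 2 pairs the numbers are not shown to pair the samples. For the lists, an offset of 16 gave 3 higher progesterone genes, 1 lower prolactin gene and 0 higher milk genes, the mean of probe sets gave 1 lower progesterone gene, quantile normalization gave 0 higher milk genes, and no minimum difference gave 2 higher milk genes and 1 higher steroid metabolism gene. Leaving out 1 array gave 1 to 3 lower estrogen genes, 0 to 3 lower prolactin genes, 0 to 2 higher and 0 to 1 lower milk genes, and 0 to 2 higher steroid metabolism genes. Signs turned in genes that did not pass in those fits. Leaving out 1 array gave differences of -0.28 to 0.12 for Ghr, -0.36 to 0.25 for Gata3, -0.18 to 0.0527 for Hand2, -0.34 to 0.97 for Csn1s2a and -0.31 to 0.14 for Ptprc, and Hand2 had 0.0873 with the mean of its probe sets. With an offset of 16, Igfbp4, Tnfrsf11a, Igf1, Socs3 and Csn1s1 had an adjusted p from 0.0624 to 0.0917, and Rspo1 and Kit were under 2-fold; Csn1s1 was under 2-fold after quantile normalization, and Acta2 had an adjusted p of 0.0522 with all 7 arrays. The causes were not tested, beyond the fewer arrays or genes that an alternative holds. Signal over background limits Tnfsf11, the basal levels of Foxa1 and Greb1, and 3 Greb1 probe sets.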
